A study of Mus musculus with 6 samples.

Results

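Ovarian hyperstimulation syndrome (OHSS) is an excessive response of the ovary to hormones given to ripen follicles, and OHSS ovaries of a mouse model were compared here with COH ovaries across all expressed genes. The 4 libraries with these labels, of 6 in the series, made up the comparison, and 19027 of the 51826 genes in the count table had enough counts to be tested. The 2 OHSS libraries came from ovaries of ICR mice, an outbred strain, labelled as the OHSS model, with no drug named. The 2 COH libraries came from ovaries of ICR mice with no model label, and the labels do not spell out COH. The remaining 2 libraries, from OHSS ovaries given nintedanib, took part in the gene filter, the scaling and the estimate of the spread, but not in the contrast. With the 4 OHSS and COH libraries alone, 18473 genes passed the filter. The sources used here do not give the age of the mice, the hormones and doses, the time of sampling or how many animals a library holds. Total RNA from frozen whole ovaries was made into libraries with an mRNA kit.

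In a follicle, granulosa cells surround the oocyte and theca cells lie outside them. After the surge of luteinizing hormone both turn into luteal cells, which draw on cholesterol to make progesterone. In the syndrome, enlarged ovaries release vasoactive factors, vascular endothelial growth factor among them, and fluid leaks from vessels. A whole ovary holds all of these cells with vessels, stroma and immune cells, so fewer cells of a type and less RNA per cell cannot be told apart in these data.

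The gene counts of the libraries summed to 32390829 and 30993703 in OHSS, against 34716751 and 28609601 in COH, and levels are given as CPM, counts scaled to a common library size. Mitochondrially encoded transcripts took 6.799 and 7.10% of counts in OHSS and 5.21 and 5.96% in COH. The labelled tissue had its defining transcripts in all 4 libraries: the 12 luteal markers summed to 32113 and 36202 CPM in OHSS and 26490 and 28328 CPM in COH. The 14 granulosa markers summed to 6036 and 5719 CPM in OHSS and 6228 and 5980 CPM in COH. For the 18 oocyte markers the sums were 354 and 450.1 CPM in OHSS and 618 and 447.3 CPM in COH, so the second COH library lay at the level of the second OHSS library.

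At a Benjamini-Hochberg adjusted p below 0.05, edgeR's quasi-likelihood test called 2 genes, which is 0.0105% of those tested. A further description uses the unadjusted p of the same test: 1679 genes (8.82%) had one below 0.05, of which 873 were higher in OHSS (4.59% of all genes) and 806 lower (4.24%). This looser limit holds many genes that chance alone would put there, and a count past it is read only against these shares. Without TMM scaling the split was 648 higher and 1182 lower. The groups did not overlap in 4030 genes that were higher in OHSS (21.2%) and in 4352 genes that were lower (22.9%). DESeq2 called 360 of the 16444 genes to which it gave an adjusted p (2.19%), 230 higher and 130 lower in OHSS, both genes called by edgeR among them. The labels do not say whether the 2 libraries of a group are from different animals, so p-values measure the spread between these libraries, which may be technical.

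Differences between the libraries of a group are set here beside differences between the group means. A mean of 2 libraries varies less than a single library, so the 2 kinds of difference are not on an equal footing. Among 12279 genes with a mean of at least 5 CPM, the median absolute log2 difference was 0.165 between the means of OHSS and COH, 0.186 between the 2 OHSS libraries and 0.135 between the 2 COH libraries. A difference of at least 1 on the log2 scale separated OHSS from COH in 415 genes, the OHSS libraries from each other in 681 genes, and the COH libraries from each other in 348 genes. The group difference exceeded both within-group differences in 3979 genes (32.4%), 1805 of them higher and 2174 lower in OHSS. The share that chance alone would give was not worked out. In the plot of all genes by level, the groups of genes described next stand out on either side of 0.

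**Figure D1:**
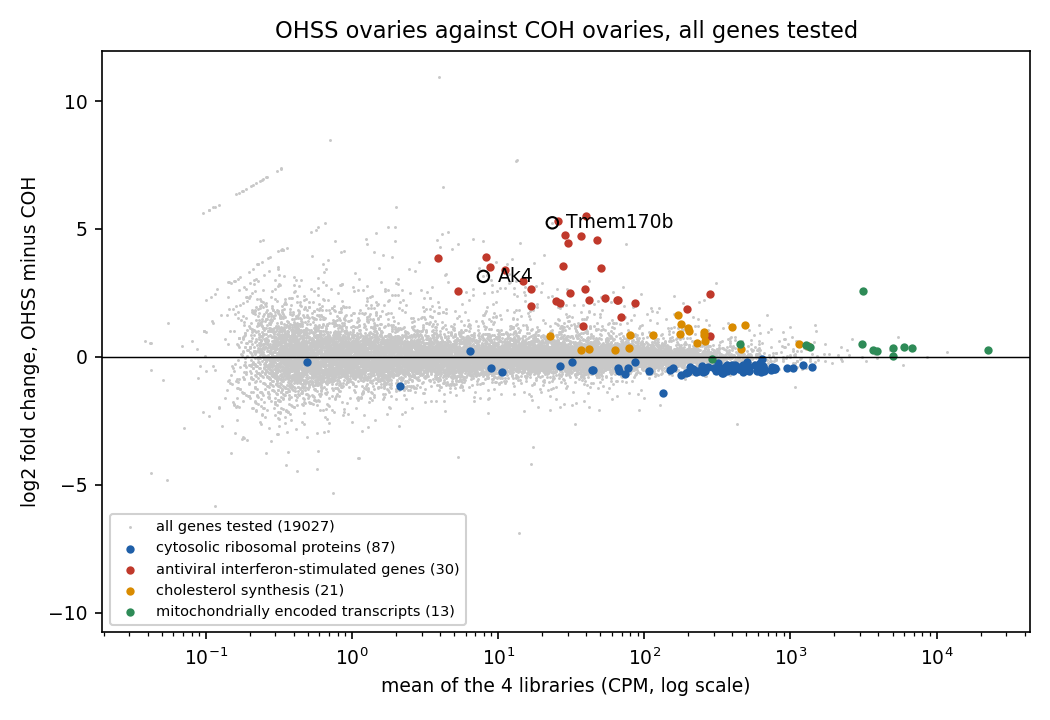
Log2 fold change, OHSS minus COH, of each of the 19027 genes tested (points) against the mean CPM of the 4 libraries on a log scale, with 4 gene lists in colour and the 2 genes called by edgeR circled. The 30 antiviral interferon-stimulated genes and the 21 cholesterol synthesis genes all lie above 0, and 86 of the 87 ribosomal protein genes lie below it.

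The 2 genes that rose in OHSS past the adjusted threshold were Tmem170b and Ak4. Tmem170b (gene ID ENSMUSG00000087370), a small transmembrane protein, had 42.6 and 49.0 CPM in OHSS and 1.12 and 1.296 CPM in COH. Its mean and SD over the 2 libraries were 45.8 ± 4.55 CPM in OHSS, against 1.21 ± 0.121 CPM in COH. The log2 fold change was 5.24 (SE 0.173, adjusted p = 0.00568 by edgeR's quasi-likelihood test). Ak4 (gene ID ENSMUSG00000028527), an adenylate kinase of the mitochondrial matrix that exchanges phosphates between nucleotides, had 14.7 and 13.8 CPM in OHSS and 1.602 and 1.611 CPM in COH. Its log2 fold change was 3.15 (SE 0.166, adjusted p = 0.0356 by edgeR's quasi-likelihood test). For both genes the libraries of a group lay close together and far from those of the other group. Limma voom gave adjusted p = 0.0702 for Tmem170b and 0.0947 for Ak4, above the threshold. Fitted on the 4 OHSS and COH libraries alone, edgeR's quasi-likelihood test gave adjusted p = 0.0559 for Tmem170b and 0.118 for Ak4. With 1 of the 6 libraries left out, its adjusted p for Tmem170b ran from 0.0290 to 0.269, below 0.05 only without OHSS replicate 1, and that for Ak4 from 0.105 to 0.342. The log2 fold changes then ran from 5.13 to 5.35 for Tmem170b and from 3.12 to 3.18 for Ak4.

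The genes around these 2 loci and their relatives did not show a shift of that size. Of 6 tested genes that start within 500 kb of Tmem170b, 1 was past the looser limit, Hivep1, a zinc finger transcription factor, with 49.8 and 52.0 CPM in OHSS and 41.7 and 40.8 CPM in COH, and the fold changes of the 6 ranged from -0.47 to 0.48. Around Ak4, 0 of 6 genes were past it, and their fold changes ranged from -0.27 to 1.04. Tmem170, the paralog of Tmem170b, had 16.2 and 21.1 CPM in OHSS and 19.1 and 19.1 CPM in COH. Another mitochondrial adenylate kinase, Ak3, had 232 and 211 CPM in OHSS and 221 and 227 CPM in COH. The groups overlap in both.

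Interferon-stimulated genes had the largest median fold change of the 69 gene lists described. Interferons bind cell surface receptors, and transcription factors that include STAT2 and IRF9 then switch on antiviral genes through a promoter element rich in GAAA repeats. All 30 members of an antiviral list were tested and 30 were higher in OHSS, 23 past the looser limit and 28 with groups that do not overlap, with a median log2 fold change of 2.62 against -0.0030 over all genes. The 2 OHSS libraries were unequal: the median stood 3.33 above the COH mean in replicate 1 and 1.14 above it in replicate 2. Their summed level was 4394 and 1041 CPM in OHSS and 620.1 and 641 CPM in COH. Leaving out OHSS replicate 1 gave a median of 1.13, and leaving out replicate 2 gave 3.33.

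Promoters of 4 of these genes are shown because they hold the element that the list's regulators bind. The sequences are RefSeq promoters (GRCm38.p6) from 250 bases before to 50 after the annotated start, 5′ to 3′ on the gene's strand, and capitals mark matches to GAAANNGAA or to its reverse complement. Oas1a lies at chr5:120907476-120907775 (minus strand), Ifit1 at chr19:34640639-34640938 (plus strand), Ifit3b at chr19:34607707-34608006 (plus strand) and Isg15 at chr4:156200769-156201068 (minus strand).
Oas1a: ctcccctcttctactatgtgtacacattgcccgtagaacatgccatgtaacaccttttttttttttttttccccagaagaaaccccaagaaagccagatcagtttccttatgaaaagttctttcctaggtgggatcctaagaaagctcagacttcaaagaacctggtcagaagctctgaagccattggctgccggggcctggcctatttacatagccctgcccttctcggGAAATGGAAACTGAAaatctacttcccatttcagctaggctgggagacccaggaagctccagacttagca
Ifit1: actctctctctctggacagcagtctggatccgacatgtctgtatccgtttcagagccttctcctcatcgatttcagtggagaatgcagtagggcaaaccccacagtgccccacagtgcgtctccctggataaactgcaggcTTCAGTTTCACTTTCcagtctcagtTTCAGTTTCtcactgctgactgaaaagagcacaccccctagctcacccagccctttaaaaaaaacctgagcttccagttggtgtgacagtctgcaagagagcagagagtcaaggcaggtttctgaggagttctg
Ifit3b: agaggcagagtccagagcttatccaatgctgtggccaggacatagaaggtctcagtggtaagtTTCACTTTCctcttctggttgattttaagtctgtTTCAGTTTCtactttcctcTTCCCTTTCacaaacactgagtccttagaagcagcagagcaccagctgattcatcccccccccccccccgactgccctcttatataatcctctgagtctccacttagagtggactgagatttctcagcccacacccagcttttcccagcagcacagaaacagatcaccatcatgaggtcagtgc
Isg15: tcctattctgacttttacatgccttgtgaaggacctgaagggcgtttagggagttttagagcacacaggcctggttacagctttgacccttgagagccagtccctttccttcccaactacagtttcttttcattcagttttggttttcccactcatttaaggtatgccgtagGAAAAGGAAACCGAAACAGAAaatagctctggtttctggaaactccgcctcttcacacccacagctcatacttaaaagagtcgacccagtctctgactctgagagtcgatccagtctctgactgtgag

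In Oas1a 2 matches start at -20 and -14 from the annotated start, in Isg15 3 start at -78, -72 and -66, in Ifit1 3 start at -109, -103 and -84, and in Ifit3b 3 start at -187, -153 and -134. Within Oas1a, Isg15 and Ifit1 some matches overlap each other. The motif was found on either strand in 13 of the 22 list members with a promoter in the table (59.1%), and in 2638 of all 27025 genes with one (9.76%). A match describes letters in the window and not a bound site.

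The genes with these promoters were high in OHSS replicate 1 above all. Ifit1, an antiviral RNA-binding protein, had 136 and 20.4 CPM in OHSS and 1.602 and 1.82 CPM in COH, a log2 fold change of 5.51 (SE 1.57). Isg15, a ubiquitin-like modifier, had 104 and 11.4 CPM in OHSS and 2.89 and 2.31 CPM in COH. Oas1a, an oligoadenylate synthetase, had 27.6 and 4.95 CPM in OHSS and 1.49 and 1.33 CPM in COH. In each the lower OHSS library still lay above both COH libraries. Ifit3b had 87.2 and 12.6 CPM in OHSS and 0.927 and 1.58 CPM in COH, but Ifit3 and Ifit3b, like the Oas1 and Apol9 genes, have near-identical copies, and how their reads were split is uncertain. Usp18, which removes Isg15 from proteins, had 97.9 and 12.1 CPM in OHSS and 1.85 and 2.21 CPM in COH. Ifi44 had 130 and 12.3 CPM in OHSS and 2.59 and 2.77 CPM in COH. The RNA sensor Ddx58 had 212 and 66.7 CPM in OHSS and 30.8 and 34.4 CPM in COH.

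The regulators of the pathway showed the same order of libraries. Irf7, which amplifies the response, had 158 and 26.7 CPM in OHSS and 6.04 and 10.4 CPM in COH. Stat2 had 139 and 40.1 CPM in OHSS and 20.1 and 15.8 CPM in COH. Irf9 had 137 and 70.1 CPM in OHSS and 30.7 and 38.8 CPM in COH. The most even of the effectors was Oasl2, with 147 and 70.1 CPM in OHSS and 23.5 and 22.5 CPM in COH, a log2 fold change of 2.24 (SE 0.364, adjusted p = 0.395 by edgeR's quasi-likelihood test). Not all members were high in both OHSS libraries: Oas3 had 14.1 and 0.561 CPM in OHSS and 0.478 and 0.525 CPM in COH, and for Bst2, with 544 and 173 CPM in OHSS and 215 and 192 CPM in COH, the groups overlap.

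Mndal, an interferon-inducible p200 family member, differed from this pattern in that both OHSS libraries were alike, with 31.3 and 23.1 CPM in OHSS and 1.21 and 1.26 CPM in COH. Its log2 fold change was 4.46 (SE 0.502, adjusted p = 0.171 by edgeR's quasi-likelihood test), and because the p200 genes are close copies of each other its level is uncertain.

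**Figure D2:**
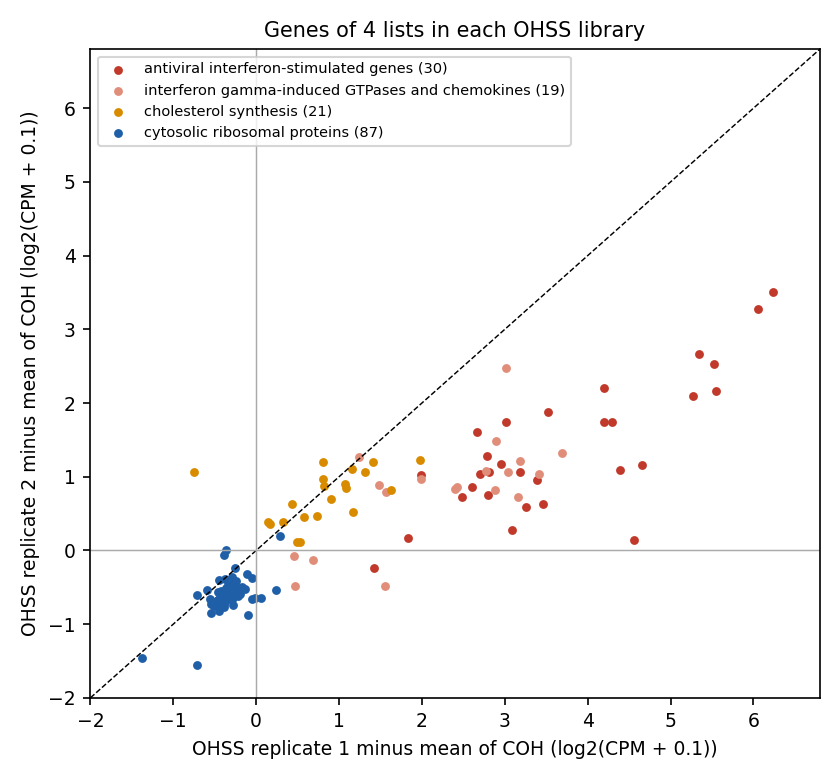
Each point is a gene of 1 of 4 lists, placed by its difference from the COH mean in OHSS replicate 1 (horizontal axis) and OHSS replicate 2 (vertical axis), both as log2(CPM + 0.1), with a dashed line where the libraries are equal. Most interferon genes lie far below the line, so that replicate 1 was higher, while most cholesterol and ribosomal genes lie near it, on the positive and the negative side.

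Genes induced mainly by interferon gamma followed the antiviral list. All 19 tested members, GTPases that attack intracellular microbes and T cell-attracting chemokines, were higher in OHSS, 10 past the looser limit, with a median of 1.84 (2.42 above the COH mean in OHSS replicate 1 and 0.90 in replicate 2). Without OHSS replicate 1 the median was 0.92. Irf1, a transcription factor of this response, was even between libraries, with 43.7 and 44.7 CPM in OHSS and 19.4 and 17.5 CPM in COH, a log2 fold change of 1.26 (SE 0.22). Igtp had 62.7 and 15.9 CPM in OHSS and 7.45 and 7.67 CPM in COH. Cxcl10 had 18.97 and 13.1 CPM in OHSS and 2.64 and 1.93 CPM in COH. In Gbp2 the groups overlap, at 75.2 and 38.8 CPM in OHSS and 64.0 and 46.4 CPM in COH.

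Transcripts of the interferons themselves were at or near 0. Ifnb1, Ifng and Ifnk had 0 counts in all 4 libraries, which allows up to 0.193 and 0.198 CPM in OHSS and up to 0.169 and 0.210 CPM in COH (3 read pairs or 6 counts per library, for counting error only). The receptor genes were near their COH level: Ifnar1 had 94.2 and 103 CPM in OHSS and 103 and 112 CPM in COH, and Ifnar2 had 68.5 and 58.4 CPM in OHSS and 66.0 and 73.1 CPM in COH. Among the sensors of nucleic acids, Tlr8 had 3.57 and 2.71 CPM in OHSS and 1.71 and 1.05 CPM in COH. It was the 1 of 16 tested genes in the list of ligands, receptors and sensors past the looser limit (6.25%, against 8.82% of all genes).

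MHC class I and peptide loading genes, which interferons also induce, had groups that overlap for the most part. Of 19 tested 14 were higher in OHSS, 1 past the looser limit (5.26%, against 8.82% of all genes), with a median of 0.27, which turned to -0.15 when OHSS replicate 1 was left out and was 0.60 without replicate 2. The peptide transporter subunit Tap2 had 109 and 85.5 CPM in OHSS and 66.8 and 69.1 CPM in COH, with groups apart. B2m, the shared light chain, had 794 and 338 CPM in OHSS and 315 and 421 CPM in COH, with groups that overlap. MHC class II genes were lower in 8 of 13 and higher in 5, with 2 lower ones past the looser limit (15.4%, against 8.82% of all genes). The groups were apart in 6 of the 13 (46.2%, against 44.1% of all genes). Their median was -0.33, and it lay between -0.53 (without OHSS replicate 2) and -0.20 (without OHSS replicate 1) when 1 library was left out. H2-Ab1, a class II chain of antigen-presenting cells, had 26.7 and 28.9 CPM in OHSS and 47.2 and 52.4 CPM in COH, a log2 fold change of -0.84 (SE 0.153), and H2-Aa had 22.2 and 27.5 CPM in OHSS and 37.2 and 39.0 CPM in COH. The difference between the classes was not tested. Of the markers of cells that carry class II, dendritic cell markers were lower in 8 of 9, 1 past the looser limit (11.1%, against 8.82% of all genes). Their median was -0.25 (-0.48 with COH replicate 2 left out, -0.08 with COH replicate 1 left out). They summed to 55.3 and 53.3 CPM in OHSS and 59.2 and 61.3 CPM in COH. B and plasma cell markers were lower in 6 of 8, 0 past it, with a median of -0.46 (0.10 without COH replicate 2). Their part in the class II result was not tested.

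Markers of immune cells differed by less than the interferon genes. Of 18 macrophage markers 15 were higher in OHSS and 3 lower, with sums of 844 and 566 CPM in OHSS and 692 and 773 CPM in COH. The groups were apart in 4 higher and 3 lower markers (38.9%, against 44.1% of all genes). In each direction 1 was past the looser limit (11.1% of the list, against 8.82% of all genes). Lyz2, a lower one, had 167 and 137 CPM in OHSS and 240 and 262 CPM in COH. The median of 0.17 turned to -0.07 when OHSS replicate 1 was left out and was 0.37 without replicate 2. The 12 tested T and NK cell markers summed to 18.2 and 15.05 CPM in OHSS and 15.7 and 16.7 CPM in COH. The 8 tested B and plasma cell markers summed to 189.8 and 184.5 CPM in OHSS and 183.3 and 250.8 CPM in COH. The part of immune cells in the interferon pattern was not tested.

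Genes of 3 mast cell proteases were lower in OHSS, but the marker list as a whole did not separate the groups. Of 7 tested mast cell and eosinophil markers 5 were lower, 4 past the looser limit, and their median was -0.62, or -0.96 without COH replicate 1. Their sums were 146.6 and 94.4 CPM in OHSS and 115.2 and 108.2 CPM in COH, so the first OHSS library had the highest sum. The protease gene Cma1 had 1.38 and 0.990 CPM in OHSS and 2.64 and 4.03 CPM in COH, Cpa3 had 1.80 and 1.254 CPM in OHSS and 2.73 and 3.05 CPM in COH, and Mcpt4 had 1.13 and 0.330 CPM in OHSS and 2.02 and 3.75 CPM in COH. Kit, which oocytes and theca cells also express, had 20.8 and 26.6 CPM in OHSS and 35.0 and 38.1 CPM in COH. The groups did not overlap in these 4 genes, while those of the mast cell tryptase Tpsb2 did. The 2 members with a higher mean in OHSS were Hdc, the histamine-making enzyme, with 118.0 and 61.8 CPM in OHSS and 69.3 and 53.5 CPM in COH, and the eosinophil receptor Ccr3, with 0.579 and 0.792 CPM in OHSS and 0.759 and 0.315 CPM in COH, both with groups that overlap.

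Genes of the protein synthesis machinery were lower in OHSS almost without exception. Ribosomes join a small and a large subunit of RNA and protein, and their protein genes are among the most abundant transcripts of a cell. Of 90 cytosolic ribosomal protein genes 87 were tested and 86 were lower in OHSS, 63 past the looser limit and 81 with groups that do not overlap, with a median of -0.46. The median lay 0.35 below the COH mean in OHSS replicate 1 and 0.62 below it in replicate 2, and leaving out any 1 OHSS or COH library gave medians of -0.60 to -0.36. Their summed level was 32449 and 26657 CPM in OHSS and 40513 and 40013 CPM in COH.

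Both subunits were lower. Of 36 small subunit genes 35 were lower and 27 past the looser limit, with a summed level of 12662 and 10108 CPM in OHSS and 15874 and 15505 CPM in COH. Of 51 large subunit genes 51 were lower and 36 past the looser limit, with 19787 and 16549 CPM in OHSS and 24639 and 24508 CPM in COH. The medians were -0.48 and -0.45. Rpl30, of the large subunit, had 75.01 and 70.4 CPM in OHSS and 195 and 194 CPM in COH, a log2 fold change of -1.42 (SE 0.188). Rps28, of the small subunit, had 162 and 142 CPM in OHSS and 237 and 236 CPM in COH. Rps4x had 654 and 562 CPM in OHSS and 892 and 840 CPM in COH. In these 3 every OHSS library lay below every COH library. Rps4l was the 1 member that was higher, at 7.14 and 6.67 CPM in OHSS and 5.12 and 6.62 CPM in COH, and in Rps26 the groups overlap, at 781 and 455 CPM in OHSS and 646 and 674 CPM in COH. Eef1g, an elongation factor subunit, had 462 and 385 CPM in OHSS and 619 and 590 CPM in COH. Ribosomal protein genes have many near-identical pseudogene copies, so the level of a single gene is uncertain.

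Nuclear genes of the mitochondria went the same way by less. Of 75 nuclear subunits of the respiratory chain and ATP synthase 72 were lower in OHSS, 23 past the looser limit and 57 with groups apart, with a median of -0.28. Complex I had 34 of 36 lower (median -0.28), complex II 3 of 4 (-0.15), complex III 9 of 9 (-0.21), complex IV 11 of 11 (-0.29) and ATP synthase 15 of 15 (-0.26). Atp5g2, a subunit of the ring that turns in the membrane, had 142 and 130 CPM in OHSS and 183 and 190 CPM in COH. Cox7a2l, which takes part in joining respiratory complexes, had 104 and 100.2 CPM in OHSS and 137 and 134 CPM in COH. Of 78 mitochondrial ribosomal protein genes 73 were lower and 12 past the looser limit (median -0.21). Of 38 proteasome subunits 30 were lower (median -0.13) and 5 past the looser limit (13.2%, against 8.82% of all genes). Tricarboxylic acid cycle genes were close to the background: 13 of 20 were lower, 2 were past the looser limit (10% against 8.82% of all genes), and the median was -0.06, from -0.11 (OHSS replicate 1 left out) to -0.00061 (COH replicate 2 left out).

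The difference between OHSS and COH also ran with gene length. Among 11710 protein-coding genes of at least 5 CPM, by exon length in GENCODE M21, the median log2 fold change was -0.25 for the 176 genes of 500 to 1000 bases, -0.13 at 1500 to 2000 bases, -0.03 at 3000 to 4000 bases and 0.10 for the 1251 genes over 10000 bases. The 16 genes of up to 500 bases had a median of -0.33, and the run from short to long is the same without them. Both OHSS libraries showed it: in genes of 500 to 1000 bases the median difference from the COH mean was -0.22 in replicate 1 and -0.29 in replicate 2, and in genes over 10000 bases it was 0.10 and 0.11. Between the 2 COH libraries (replicate 1 minus 2) the medians ran from -0.12 in the shortest class to 0.03 in the longest. Between the 2 OHSS libraries (replicate 1 minus 2) they ran from 0.11 in the shortest class to -0.0031 in the longest. Libraries of the same group thus also differed with length.

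Ribosomal protein genes are short, with a median exon length of 1734 bases against 4644 for all these genes, so length moves with the ribosomal result. Within each length class their median was below that of other genes: -0.47 for 15 ribosomal genes and -0.17 for 395 others at 1000 to 1500 bases, -0.45 for 19 and -0.12 for 628 at 1500 to 2000 bases, and -0.42 for 10 and -0.03 for 1757 at 3000 to 4000 bases. Respiratory chain, mitochondrial ribosome and proteasome genes stood at -0.23 for 25 genes of 500 to 1000 bases, where other genes also stood at -0.23, and at -0.22 for 26 genes of 3000 to 4000 bases. What the length difference comes from was not tested.

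**Figure D3:**
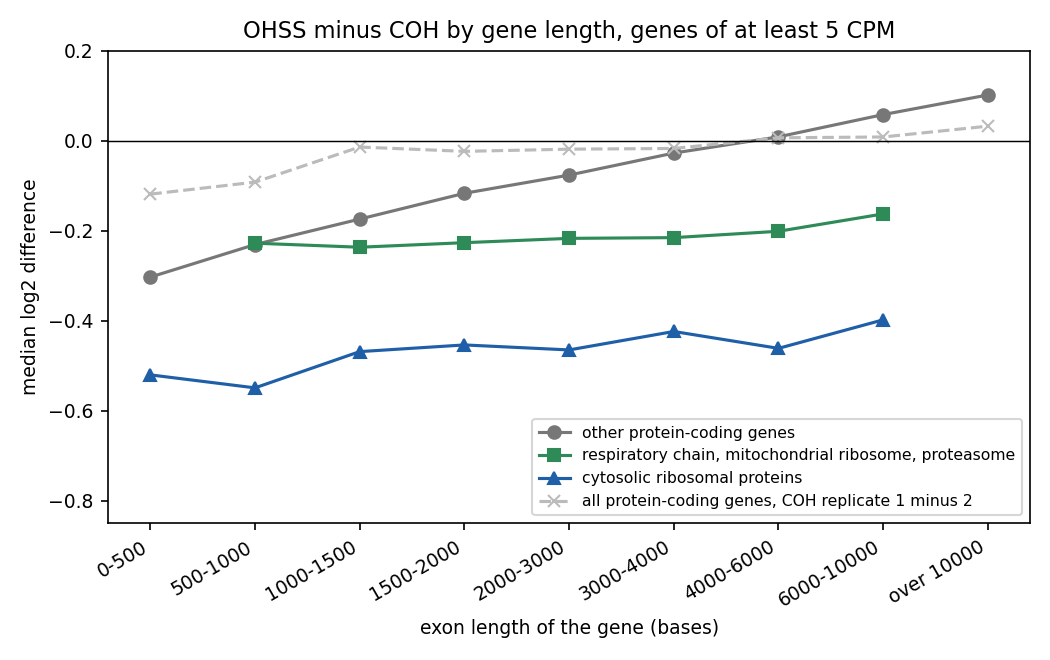
Median log2 fold change, OHSS minus COH, in classes of exon length (bases) for protein-coding genes of at least 5 CPM, with ribosomal protein genes, other machinery genes and all others drawn apart (a class with under 2 genes is left out), and the difference between the COH libraries as a dashed line. Other genes run from -0.30 in the shortest class to 0.10 in the longest, and ribosomal protein genes lie between -0.55 and -0.40 in each class that holds any.

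Transcripts of the mitochondrial genome did not go the way of the nuclear subunits. Of the 13 protein-coding genes of that genome 12 were higher in OHSS, 5 past the looser limit and 10 with groups apart, with a median of 0.34 (0.22 without COH replicate 1) and sums of 69702 and 71189 CPM in OHSS and 49735 and 58419 CPM in COH. The complex I subunit mt-Nd6 had 1412 and 1642 CPM in OHSS and 1059 and 1287 CPM in COH. mt-Atp6, a subunit of ATP synthase, stood apart with 5454 and 5335 CPM in OHSS and 802 and 997 CPM in COH, a log2 fold change of 2.58 (SE 0.195, adjusted p = 0.084 by edgeR's quasi-likelihood test). This value is uncertain: the nuclear pseudogene Gm10925 is identical to it over 678 of its 681 bases, and it had 5891 and 5623 CPM in OHSS and 4290 and 5046 CPM in COH. The share of mitochondrial transcripts can also reflect RNA quality and handling, and its part in other results was not tested.

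Cholesterol synthesis genes were higher throughout. Sterol shortage in the endoplasmic reticulum releases the transcription factor SREBP2, which raises the genes of this pathway. All 21 synthesis genes tested were higher in OHSS, 15 past the looser limit and 19 with groups apart, with a median of 0.85, and the OHSS libraries were alike at 0.80 and 0.82 above the COH mean. From the start of the pathway, Hmgcs1 had 1397 and 1278 CPM in OHSS and 888 and 983 CPM in COH, with the groups apart. Further down, Sqle had 235 and 308 CPM in OHSS and 150 and 121 CPM in COH. Lss, which closes the sterol rings, had 323 and 191 CPM in OHSS and 90.8 and 74.1 CPM in COH, a log2 fold change of 1.64 (SE 0.323). Nsdhl, a late demethylation enzyme, had 280 and 271 CPM in OHSS and 125 and 126 CPM in COH, a log2 fold change of 1.13 (SE 0.158). The exceptions to separate groups were Fdps, at 587 and 441 CPM in OHSS and 471 and 349.6 CPM in COH, and Hsd17b7, at 670.2 and 2349 CPM in OHSS and 1196 and 1062 CPM in COH.

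The Hmgcs1 promoter (RefSeq, GRCm38.p6, chr13:119690101-119690400, plus strand) is shown because it was the 1 of 27 sterol genes with a promoter in the table that held the sterol element TCACNCCAC on either strand, in capitals at -137. In all, 388 of 27025 genes with a promoter in the table held it (1.44%), and its absence from the other windows says only that these letters are not there.
Hmgcs1: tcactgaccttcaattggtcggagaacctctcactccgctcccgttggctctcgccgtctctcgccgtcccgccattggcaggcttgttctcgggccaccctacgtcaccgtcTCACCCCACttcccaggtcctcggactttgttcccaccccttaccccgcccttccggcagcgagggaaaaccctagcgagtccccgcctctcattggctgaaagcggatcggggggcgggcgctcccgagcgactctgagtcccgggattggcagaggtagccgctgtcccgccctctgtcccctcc

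Genes of sterol supply and fatty acid synthesis were also higher. Of 16 sterol sensing and uptake genes 12 were higher, 4 past the looser limit, with a median of 0.26. Insig1, which holds SREBP back when sterol is plentiful, had 194 and 204 CPM in OHSS and 82.9 and 97.7 CPM in COH. Scarb1, which takes up cholesterol esters from HDL in steroid-making cells, had 3733 and 2782 CPM in OHSS and 2197 and 1851 CPM in COH. The groups were apart in both genes. Sterol efflux genes showed no such shift, with 4 of 10 higher and a median of -0.14 that ran from -0.29 (without OHSS replicate 1) to -0.03 (without COH replicate 2). Of 17 genes of fatty acid synthesis and desaturation 16 were higher, 6 past the looser limit, with a median of 0.48. The desaturase Scd1 had 398 and 370.1 CPM in OHSS and 159 and 126 CPM in COH, and Fads2 had 663 and 494 CPM in OHSS and 246 and 247 CPM in COH. Acss2, which makes acetyl-CoA from acetate, had 47.7 and 58.8 CPM in OHSS and 28.9 and 27.6 CPM in COH. Fasn, the fatty acid synthase, had 272 and 248 CPM in OHSS and 219.5 and 260 CPM in COH, with groups that overlap. Markers of luteal cells and of theca cells and stroma, which include the steroid-making cells, had medians of 0.34 (0.13 without OHSS replicate 2) and -0.14 (0.03 without it and -0.33 without OHSS replicate 1), and their part in the lipid result was not tested.

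Steroid hormone genes were uneven between the OHSS libraries. Of 15 tested synthesis genes 12 were higher, 2 past the looser limit (13.3%, against 8.82% of all genes), with a median of 0.25. Leaving out OHSS replicate 1 gave a median of 0.02, leaving out replicate 2 gave 0.57, and leaving out COH replicate 1 gave 0.40. Star, which brings cholesterol into mitochondria, had 2722 and 1396 CPM in OHSS and 893 and 863 CPM in COH, a log2 fold change of 1.23 (SE 0.338). Cyp11a1, the first enzyme of the pathway, had 12309 and 12574 CPM in OHSS and 10928 and 10913 CPM in COH, a small difference with groups apart. Cyp17a1, with which theca cells make androgens, had 1230 and 865 CPM in OHSS and 214 and 459 CPM in COH. Cyp19a1, the aromatase, had 39.0 and 41.5 CPM in OHSS and 27.4 and 17.8 CPM in COH. The enzymes of corticosteroid synthesis best known from the adrenal gland were also higher: Cyp11b1 had 233 and 88.8 CPM in OHSS and 44.7 and 13.7 CPM in COH, and Cyp21a1 had 6.88 and 2.11 CPM in OHSS and 0.703 and 0.105 CPM in COH. Hsd11b1, which regenerates active glucocorticoid, had 3.76 and 4.16 CPM in OHSS and 1.91 and 1.96 CPM in COH.

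Among hormone receptors 13 of 18 were higher, 4 past the looser limit, with a median of 0.10 that was 0.28 without OHSS replicate 1. Pgr, the progesterone receptor that the ovulatory surge induces in granulosa cells, had 15.9 and 14.2 CPM in OHSS and 3.04 and 4.10 CPM in COH, a log2 fold change of 2.08 (SE 0.224, adjusted p = 0.16 by edgeR's quasi-likelihood test). Igf1r, a growth factor receptor, had 293 and 343 CPM in OHSS and 200.4 and 185 CPM in COH. In both the OHSS libraries were close together and above COH. Insr, the insulin receptor, had 41.4 and 170 CPM in OHSS and 27.4 and 22.1 CPM in COH, with 1 OHSS library far above the other. The gonadotropin receptors did not separate: Lhcgr had 531 and 686 CPM in OHSS and 461 and 657 CPM in COH, and Fshr had 13.6 and 18.9 CPM in OHSS and 15.4 and 8.76 CPM in COH.

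Genes of growing and ovulating follicles went both ways. Amh, made by granulosa cells of small growing follicles, had 79.5 and 97.97 CPM in OHSS and 178 and 121 CPM in COH, a log2 fold change of -0.75 (SE 0.224). Its receptor Amhr2 had 60.2 and 59.8 CPM in OHSS and 91.3 and 80.2 CPM in COH. Inhba, the activin subunit, had 271 and 390 CPM in OHSS and 186 and 145 CPM in COH. So both members of the AMH pair were lower and the activin subunit higher in each OHSS library. Of 20 inhibin, activin and BMP ligands and receptors 12 were higher and 8 lower, with a median of 0.11. On the higher side 1 was past the looser limit and on the lower side 2 (15%, against 8.82% of all genes). The groups were apart in 30% of the list, against 44.1% of all genes. Of 16 tested genes of ovulation and cumulus expansion 3 were past the looser limit on the higher side and 2 on the lower side. Ereg, an EGF-like ligand of the ovulatory cascade, had 19.2 and 7.29 CPM in OHSS and 3.93 and 2.91 CPM in COH. Ptx3, a matrix protein of the expanded cumulus, had 1.29 and 1.58 CPM in OHSS and 5.62 and 4.24 CPM in COH, and Vcan, another matrix protein, had 99.8 and 102 CPM in OHSS and 138 and 179 CPM in COH. Ptgs2 had 1.74 and 1.55 CPM in OHSS and 0.450 and 0.700 CPM in COH, a low level throughout. Oocyte markers were lower in 16 of 18, 1 past the looser limit (5.56%, against 8.82% of all genes). Their median was -0.51, and -0.14 without COH replicate 1. The egg coat gene Zp3 had 32.3 and 37.8 CPM in OHSS and 59.4 and 44.2 CPM in COH.

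Insulin-like growth factor genes differed in part. Igfbp4, a binding protein that withholds the growth factors from their receptor, had 413 and 408 CPM in OHSS and 683 and 618 CPM in COH, a log2 fold change of -0.66 (SE 0.103). Igfbp6 had 69.9 and 70.0 CPM in OHSS and 110 and 104 CPM in COH, and the ligand Igf2 had 10.8 and 9.40 CPM in OHSS and 16.3 and 14.3 CPM in COH. Of the 16 members 2 were past the looser limit on the higher side and 3 on the lower side. Their median was -0.06, but -0.25 when OHSS replicate 1 was left out and 0.0089 without replicate 2.

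Genes of the VEGF system differed little between the groups. Vegfa had 167 and 111 CPM in OHSS and 103 and 89.7 CPM in COH, a log2 fold change of 0.53 (SE 0.212) with groups apart. Its receptor Kdr had 85.9 and 76.4 CPM in OHSS and 94.1 and 81.5 CPM in COH, and Flt1 had 50.2 and 42.5 CPM in OHSS and 43.4 and 40.0 CPM in COH, both with groups that overlap. Endothelial markers were lower in 16 of 20, 4 past the looser limit, with a median of -0.20 and sums of 1317 and 1436 CPM in OHSS and 1530 and 1505 CPM in COH. Cldn5, the tight junction protein of endothelium, had 43.7 and 50.1 CPM in OHSS and 73.0 and 73.2 CPM in COH, a log2 fold change of -0.64 (SE 0.121). The receptor Tie1 had 51.0 and 54.0 CPM in OHSS and 67.2 and 66.1 CPM in COH. Genes of vessel junctions were lower in 11 of 16, 2 past the looser limit (12.5%, against 8.82% of all genes). Their median of -0.17 was between -0.10 and -0.08 without OHSS replicate 1, COH replicate 1 or COH replicate 2.

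Water channels differed in both directions. Aqp1, the channel of endothelium, had 23.95 and 34.2 CPM in OHSS and 52.9 and 41.4 CPM in COH. Aqp2, the vasopressin-controlled channel known from the kidney, had 45.5 and 34.6 CPM in OHSS and 10.7 and 5.92 CPM in COH, a log2 fold change of 2.27 (SE 0.604), and Aqp5, the channel of glands, had 36.6 and 12.6 CPM in OHSS and 6.83 and 8.09 CPM in COH. Ren1, renin, which starts the cascade to angiotensin, had 34.3 and 14.6 CPM in OHSS and 8.88 and 7.07 CPM in COH. The groups were apart in all 4 genes. Of 19 tested genes of vasoactive peptides and kinins 1 was past the looser limit (5.26%, against 8.82% of all genes). In that list the groups were apart in 31.6%, against 44.1% of all genes. Over the 14 tested genes of fluid and ion transport 6 were higher, 3 past the looser limit. The median of -0.05 turned to 0.19 without OHSS replicate 2, 0.07 without OHSS replicate 1 and 0.05 without COH replicate 1. Sele, which lets leukocytes roll on activated endothelium, had 1.16 and 1.52 CPM in OHSS and 0.365 and 0.350 CPM in COH. Of 21 tested cytokines, chemokines and adhesion molecules 2 were past the looser limit (9.52%, against 8.82% of all genes).

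Collagens and matrix proteins were lower in 21 of 25, 3 past the looser limit (12%, against 8.82% of all genes). Their median of -0.19 lay between -0.29 (OHSS replicate 1 left out) and -0.10 (OHSS replicate 2 left out). Col3a1 had 1097 and 909 CPM in OHSS and 1374 and 1418 CPM in COH, and Col1a1 had 727 and 599 CPM in OHSS and 920 and 823 CPM in COH. The groups were apart in both. Markers of theca and stromal cells gave no such order, with sums of 8050 and 5060 CPM in OHSS and 4776 and 5519 CPM in COH and, of 14 tested, 2 past the looser limit on the higher side and 1 on the lower side. Erythroid and platelet markers were lower in 7 of 7 tested, with 0 past the looser limit and a median of -0.80 (-0.27 with OHSS replicate 1 left out, -1.34 with replicate 2 left out), and summed to 68.0 and 179.7 CPM in OHSS and 227.0 and 227.1 CPM in COH. The part of these markers in the endothelial result was not tested. Hypoxia genes had a median of -0.01, from -0.09 (OHSS replicate 1 left out) to 0.12 (OHSS replicate 2 left out). Past the looser limit were 2 of 19 (10.5%, against 8.82% of all genes), Egln3 and Car12. Egln3, an oxygen-sensing hydroxylase, had 18.1 and 10.7 CPM in OHSS and 4.55 and 4.31 CPM in COH. Car12, a carbonic anhydrase, had 49.1 and 27.5 CPM in OHSS and 14.9 and 18.2 CPM in COH.

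**Figure D4:**
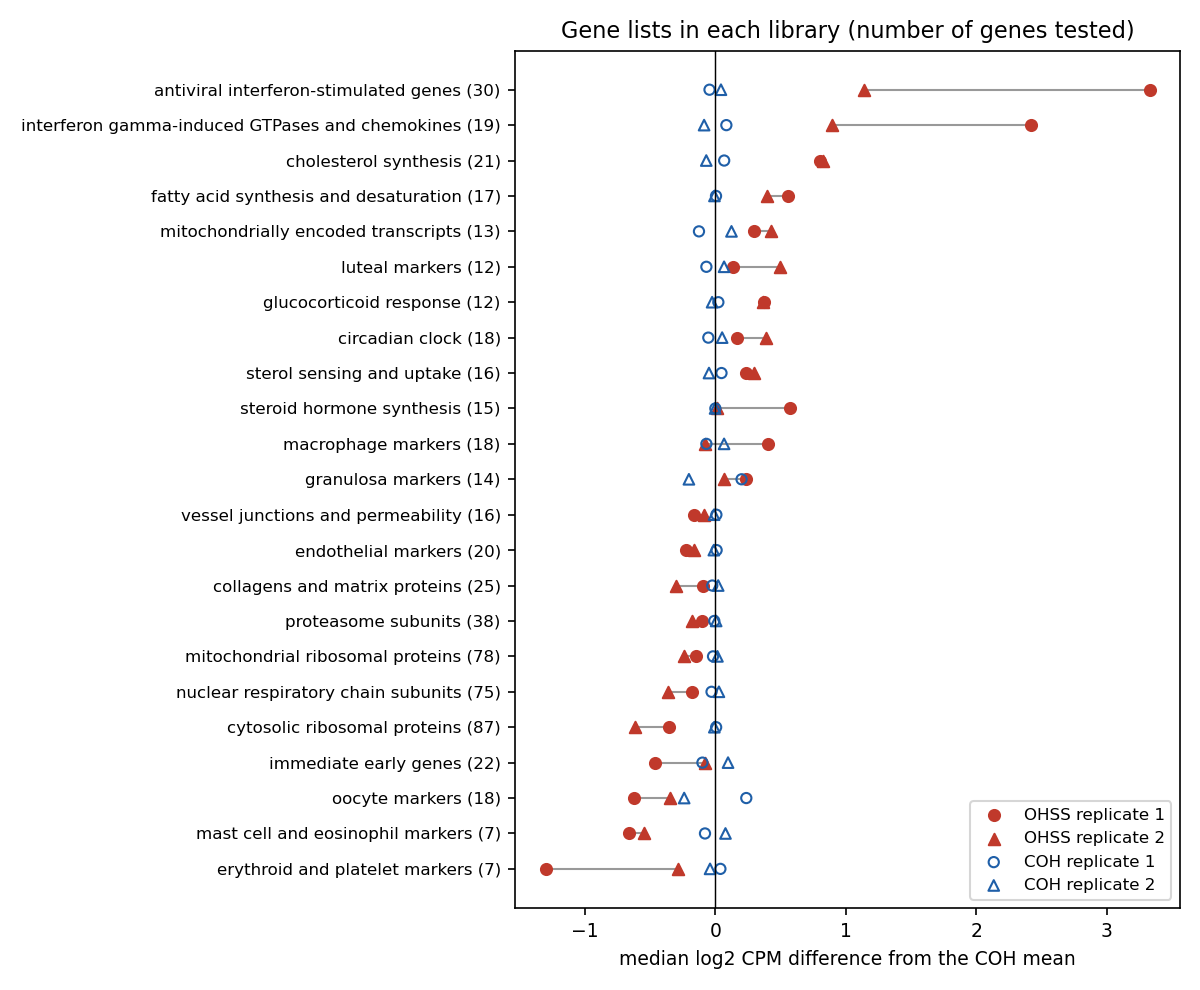
Median over the genes of each list of the log2 CPM difference from the mean of the COH libraries, for the 2 OHSS libraries (filled) and the 2 COH libraries (open), with the number of genes tested in brackets. Both OHSS libraries lie on the same side in the lipid, ribosomal and respiratory chain lists, and they lie far apart in the interferon and erythroid lists.

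Genes that respond to glucocorticoids and to the time of day were mostly higher, the latter without more separation of the groups than all genes had. Of 12 glucocorticoid response genes 11 were higher, 3 past the looser limit, with a median of 0.28 (0.19 without COH replicate 2) and the OHSS libraries at 0.38 and 0.37 above the COH mean. Tsc22d3, an anti-inflammatory target of the receptor, had 97.1 and 85.1 CPM in OHSS and 57.8 and 46.3 CPM in COH, a log2 fold change of 0.81 (SE 0.148). Zbtb16 had 7.39 and 5.64 CPM in OHSS and 2.56 and 1.33 CPM in COH. Fkbp5, another target, had 777 and 1386 CPM in OHSS and 999.8 and 1078 CPM in COH, with groups that overlap. Of 18 circadian clock genes 15 were higher, 3 past the looser limit (16.7%, against 8.82% of all genes). The groups were apart in 7 of them (38.9%, against 44.1% of all genes). Their median was 0.31, and 0.15 without OHSS replicate 2. The clock repressor Per2 had 27.9 and 23.1 CPM in OHSS and 13.6 and 10.8 CPM in COH. The sources used here do not give the time of day at sampling.

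Immediate early genes, which respond within minutes to stimulation or tissue handling, were lower in 17 of 22. Of the 22, 3 were past the looser limit (13.6%, against 8.82% of all genes). Their median of -0.25 was -0.10 without OHSS replicate 1, -0.14 without COH replicate 2 and -0.47 without OHSS replicate 2. Fos had 29.5 and 40.8 CPM in OHSS and 116 and 180 CPM in COH, a log2 fold change of -2.07 (SE 0.657). Fosb had 6.14 and 11.3 CPM in OHSS and 45.2 and 28.2 CPM in COH, and Ier2 had 40.0 and 48.0 CPM in OHSS and 71.0 and 96.9 CPM in COH. In these 3 the groups were apart, while Jun and Egr1 differed by -0.66 (SE 0.417) and -0.76 (SE 0.387). Retinoid metabolism genes were lower in 11 of 16, 3 past the looser limit, with a median of -0.18. Leaving out OHSS replicate 1 gave -0.45, leaving out replicate 2 gave -0.02, and leaving out either COH library gave -0.09. Dhrs3, which reduces retinal to retinol, had 61.4 and 58.2 CPM in OHSS and 78.0 and 92.9 CPM in COH.

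Over all genes tested, 1123 were past the looser limit, of at least 5 CPM and with groups apart, 581 higher and 542 lower in OHSS, and those with the largest fold changes include members of the lists. On the higher side the first 15 held Mx1, with 17.8 and 2.54 CPM in OHSS and 0.450 and 0.490 CPM in COH, and Mx2, with 60.5 and 16.99 CPM in OHSS and 2.50 and 2.38 CPM in COH, both antiviral GTPases. Akr1b7, in the same set, an aldo-keto reductase of steroid-making cells, had 260 and 25.6 CPM in OHSS and 11.2 and 2.17 CPM in COH. On the lower side Mgarp, a mitochondrial protein of steroid-making tissues, had 155 and 81.2 CPM in OHSS and 733 and 741 CPM in COH, a log2 fold change of -2.64 (SE 0.358). Rbpj, the DNA-binding factor of Notch signalling, had 15.7 and 19.1 CPM in OHSS and 63.3 and 70.4 CPM in COH, a log2 fold change of -1.94 (SE 0.352). Hoxd3, a homeobox factor, had 3.44 and 2.64 CPM in OHSS and 12.6 and 15.5 CPM in COH, and Phc3, a Polycomb protein, had 10.03 and 8.68 CPM in OHSS and 69.4 and 46.4 CPM in COH. These 4 lower genes had groups far apart. Others rested on 1 library: Pcdhgb8 had 0.193 and 0.264 CPM in OHSS and 54.9 and 0.420 CPM in COH, and Pcdhga5 had 61.6 and 3.30 CPM in OHSS and 2.22 and 2.87 CPM in COH, and the protocadherin gamma genes share their last exons, so their reads are uncertain.

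Among abundant genes with a log2 fold change of at least 0.5 in size, the Wnt-binding protein Sfrp4, a luteal gene, had 4928 and 8746 CPM in OHSS and 3789 and 4218 CPM in COH. The endocytic receptor Lrp1 had 1248 and 1020.3 CPM in OHSS and 722 and 672 CPM in COH. Greb1, an estrogen-responsive gene, had 975 and 1057 CPM in OHSS and 643 and 674 CPM in COH, and Ecm1, a matrix protein, had 1229 and 767 CPM in OHSS and 487 and 453 CPM in COH. Of the 10 most abundant lower genes, Igfbp4 and Eef1g were the only ones that do not encode a ribosomal protein. Some symbols stand for 2 gene IDs with opposite differences: Raver1 had 126 and 126 CPM in OHSS and 56.1 and 59.5 CPM in COH under one ID, and 14.98 and 13.7 CPM in OHSS and 33.0 and 33.3 CPM in COH under the other, and such genes, chosen here after their values were seen, are uncertain.

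**Figure D5:**
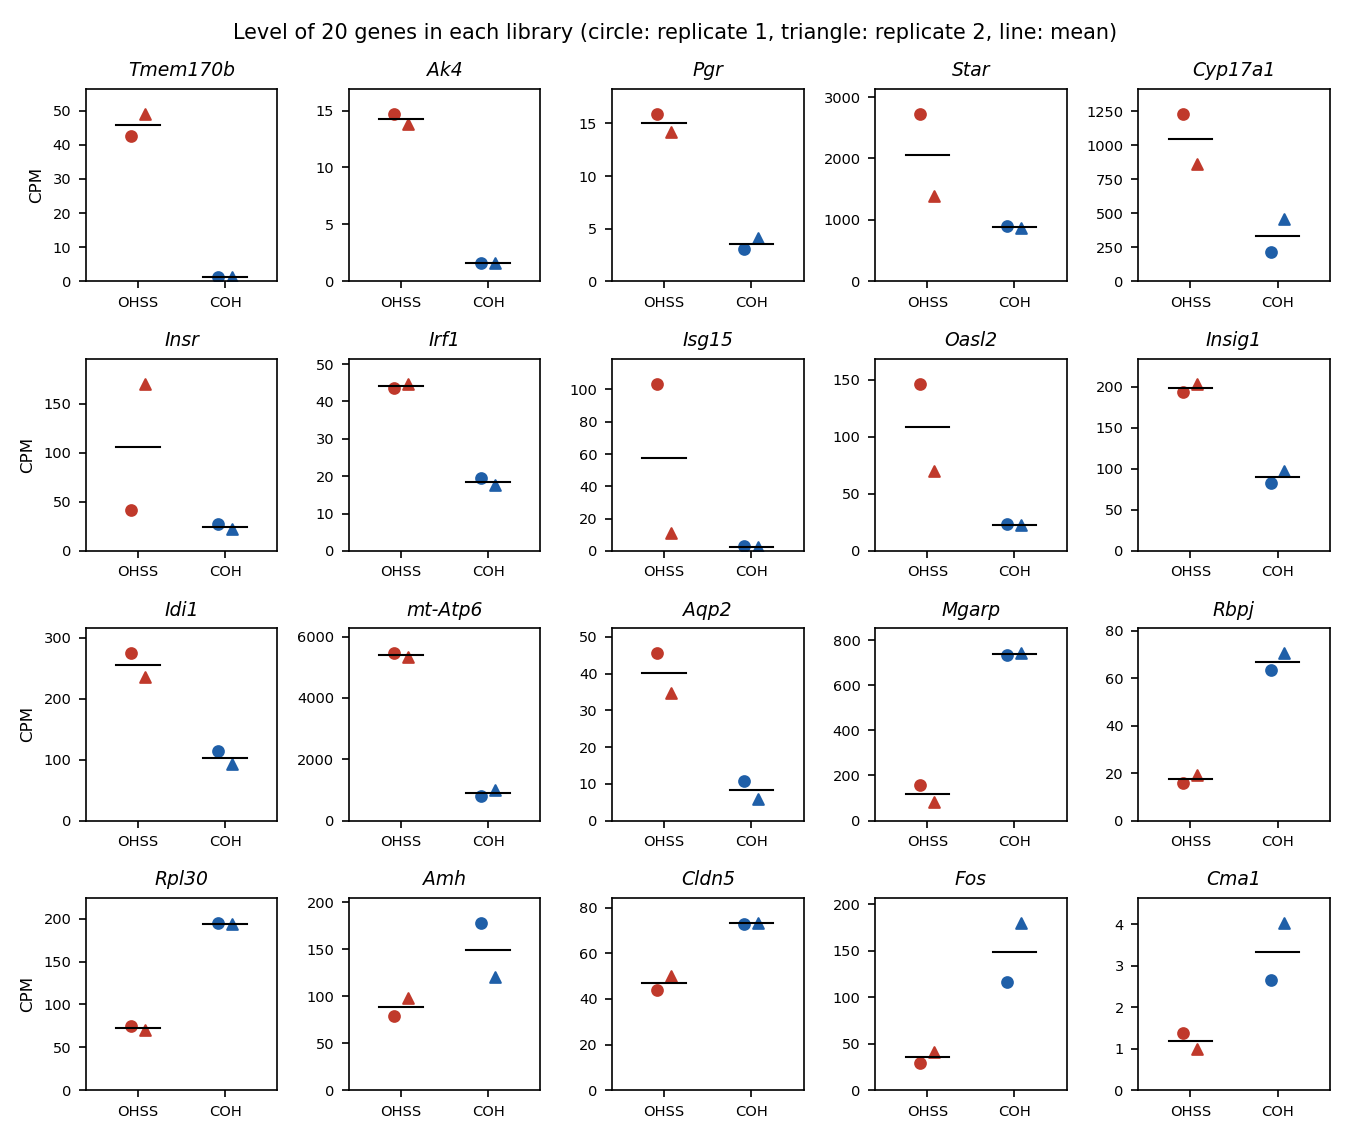
Level of 20 genes in CPM in the OHSS libraries (left in each panel) and the COH libraries (right), with each library as a point, a circle for replicate 1 and a triangle for replicate 2, and the mean as a line; every axis starts at 0. Tmem170b and Ak4 have close libraries and wide gaps, while Isg15 and Insr have 1 OHSS library far above the other.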

How the data were processed

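Bulk RNA sequencing gave raw counts per gene, deposited by the authors in 1 table of 51826 gene IDs for 6 libraries, per the file headers. Tools listed in the submitters' processing notes are StringTie 1.3.3b, HISAT2 2.1.0 and Trimmomatic 0.36, with the build mm8. The sources used here do not give the counting program, the annotation, the strand setting or the handling of reads that fit several places, so genes with near-identical copies, overlapping genes and antisense partners are uncertain. Deposited per-library read summaries, in other units, list 38504916 to 47163764 reads, and the counts come to 144.3 to 148.0% of the read pairs, so each pair appears to count as 2 reads and counting error is larger than the counts alone give. All columns of the table were mapped to samples by their titles.

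With edgeR 4.0.16 (R 4.3.3), filterByExpr left 19027 genes, scaled by TMM factors of 0.961 to 1.03. The two-sided quasi-likelihood F test was run in 1 fit of 3 groups (OHSS, OHSS with nintedanib, COH; 3 residual degrees of freedom and 2.41 prior ones), with Benjamini-Hochberg adjustment over all genes. SEs were derived from the F statistic. CPM are counts scaled to effective library size, and list values come from log2 CPM with a prior count of 2. Alternatives were scaling by library size only, by RLE or by upper quartile, no filter, a filter of at least 1 CPM, DESeq2 1.42.0, limma voom (limma 3.58.1), a replicate block, a fit of the 4 libraries alone and each library left out.

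The comparison, the 69 gene lists and the naming rule were chosen with earlier results of these data known. The rule takes called genes, then the 15 largest differences each way and the 10 most abundant genes each way (at least 0.5 on the log2 scale) among genes past the looser limit, of at least 5 CPM and with groups apart, then up to 4 genes of smallest p per list, 14 fixed ovarian genes and neighbours within 500 kb. Other genes were chosen after their values were seen. Some genes that the rule names are not reported here. Lists got no test. Exon lengths came from GENCODE M21 by gene ID, with 18980 of 19027 tested IDs matched. The processing notes name an older build, mm8, while nearly all tested IDs are found in this newer annotation, so the annotation behind the counts is uncertain.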

Additional observations from a re-analysis of the deposited data

How the results depend on the processing

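The number of genes called was 2 under RLE, upper quartile and library size scaling and under the strict filter, 4 with no filter, 360 by DESeq2, 0 by limma voom, and 0 in a fit of the 4 OHSS and COH libraries alone. The replicate block gave 1 call. The deviations of OHSS 1 and COH 1 from their group means correlated at -0.000723. This value cannot show whether same-numbered libraries were collected or prepared together, and the block is given only as a setting. Leaving out 1 library gave 0 to 2 calls: 2 without OHSS replicate 1 (1 higher and 1 lower), and 0 without OHSS replicate 2, COH replicate 1, COH replicate 2 or either nintedanib library. A count of 0 here goes with 1585 genes at an unadjusted p under 0.05 by limma voom, 1864 in the fit of 4 libraries and 839 to 1898 with 1 library left out, against 1679 in the fit reported. Without COH replicate 1 or COH replicate 2 that number was lower than the reported number by over 1.5 times. Leaving out an OHSS or a nintedanib library did not move it that far, and the cause was not tested. Library size scaling moved the median of all genes by -0.06. Of 184 named genes, Lhcgr reversed, with log2 fold changes from -0.11 (without COH replicate 1) to 0.40 (without COH replicate 2) and -0.08 without OHSS replicate 2, against 0.12. DESeq2 brought 80 of the 184 past its threshold. Depth limits genes near 0 counts, and 2 libraries a group limit all p-values.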

Other observations

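Kinds of transcript differed in their median log2 fold change, OHSS minus COH. By GENCODE M21 class, 942 processed pseudogenes had a median of -0.23, while 624 long intergenic RNAs had 0.15, 657 antisense RNAs 0.15 and 15403 protein-coding genes -0.01. How many of these pseudogenes are copies of ribosomal protein genes was not counted. Malat1, a nuclear long RNA, had 1211 and 1353 CPM in OHSS and 693 and 819 CPM in COH, with groups apart.

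Among stress genes not described above, Mdm2, a p53 target, had 76.2 and 67.1 CPM in OHSS and 54.6 and 54.5 CPM in COH, and Trp53inp1 had 209.9 and 237 CPM in OHSS and 151 and 160 CPM in COH. The death-promoting Bcl2l11 had 36.8 and 32.8 CPM in OHSS and 52.3 and 56.8 CPM in COH. The groups were apart in these 3 genes. They were apart in 44.4% of the 18 genes of the p53 and apoptosis list, against 44.1% of all genes. Past the looser limit were 2 of the 18 on the higher side and 1 on the lower side (16.7%, against 8.82% of all genes). The list had a median of 0.02, which was -0.04 under library size scaling and -0.05 to 0.08 with 1 library left out. Wt1, a factor of stroma, immature granulosa cells and surface epithelium, had 61.8 and 67.0 CPM in OHSS and 38.2 and 31.9 CPM in COH, while the 14 surface epithelium markers had a median of -0.37 that ran from -0.70 (without COH replicate 2) to 0.16 (without COH replicate 1). Gzmb, a protease of cytotoxic lymphocytes, had 2.93 and 3.70 CPM in OHSS and 0.703 and 1.05 CPM in COH. The T and NK cell markers as a list did not rise: 3 of 12 tested were higher and 9 lower. Of the 12, 1 was past the looser limit (8.33%, against 8.82% of all genes). Their median was -0.20, from -0.57 (without OHSS replicate 1) to 0.08 (without COH replicate 2).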
